A study of Homo sapiens with 12 samples.

Results

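The transcripts of 10 keratins were followed in MCF10A cells, an immortalized human mammary epithelial line that forms no tumours, before and after a high dose of irradiation (RT). The genes were taken by symbol from the 60675 genes of the table, 1 row each: the basal keratins KRT5, KRT14 and KRT15, the stress keratins KRT6A, KRT6B, KRT16 and KRT17, and the simple epithelial keratins KRT8, KRT18 and KRT19. The cells were labelled IL1R1-KO RT, IL1RAP-KO RT and WT RT after a single dose of 20 Gy, and IL1R1-KO, IL1RAP-KO and WT where they were left untreated, with 2 libraries in each of the 6 groups. All were MCF10A cells seeded on the day before irradiation. The KO cells were made with lentiviral CRISPR plasmids and puromycin selection and used as pools rather than clones. The sources used here do not state which guide was used for the sequenced cells, how WT cells were handled in parallel, or how long after irradiation RNA was taken. The comparison asked how the loss of IL1R1, the receptor chain that binds interleukin-1, or of IL1RAP, its signalling co-receptor, altered the transcriptome with and without RT.

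Keratins form the intermediate filaments of epithelial cells. A filament is built from pairs of an acidic type I chain and a basic type II chain, so that cells make the chains in matched sets. KRT5 (type II) pairs with KRT14 or KRT15 (type I) in the basal layer of stratified epithelia and in the basal cells of the mammary duct. KRT6A and KRT6B (type II) pair with KRT16 and KRT17 (type I), and are known from wounded or inflamed skin. KRT8 (type II) pairs with KRT18 and KRT19 (type I) in simple epithelia, which in the breast means the luminal cells.

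The keratins of each type lie in clusters. By the GENCODE v44 annotation of GRCh38, KRT6B (chr12:52446651-52452146), KRT6A (chr12:52487176-52493257), KRT5 (chr12:52514575-52520530) and KRT8 (chr12:52897187-52949954) lie on the minus strand of chromosome 12, and KRT18 (chr12:52948871-52952906) lies beside them on the plus strand. The other type I genes lie on the minus strand of chromosome 17: KRT15 (chr17:41513745-41522529), KRT19 (chr17:41523617-41528308), KRT14 (chr17:41582279-41586895), KRT16 (chr17:41609778-41615899) and KRT17 (chr17:41619442-41624842). Neighbours in a cluster can be near copies, which bears on how far a read can be assigned to one gene. The coding sequences of KRT6A and KRT6B are both 1692 bases long without the stop codon and differ at 42 positions (97.5% identity), and that of KRT6C differs from KRT6A at 35 (97.9% identity). A stretch of 60 coding bases in exon 2 (coding positions 661 to 720, minus strand) is shown because it holds differences that separate the copies. Capitals mark bases at which KRT6B or KRT6C differs from KRT6A, and in the KRT6A line those at which KRT6B differs.
KRT6A, chr12:52491557-52491616: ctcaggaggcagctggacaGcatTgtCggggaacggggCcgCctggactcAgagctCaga
KRT6B, chr12:52450441-52450500: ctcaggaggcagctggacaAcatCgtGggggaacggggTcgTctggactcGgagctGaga
KRT6C, chr12:52472101-52472160: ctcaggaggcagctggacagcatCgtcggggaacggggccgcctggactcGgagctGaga

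KRT6B differs from KRT6A at 7 of these 60 bases and KRT6C at 3. Over the whole canonical transcript, 26.2% of the 75-base windows of KRT6A and 34.6% of those of KRT6B occur in transcripts of other genes, mostly KRT6C. The share was 18.8% for KRT8 (mostly processed pseudogenes), 10.2% for KRT14, 9.6% for KRT16, 6.5% for KRT18, 4.57% for KRT17 and 2.77% for KRT5. No window of KRT15 or KRT19 was shared. Reads were 75 bases long and paired, and how reads that fitted 2 genes were treated is not stated, so KRT6A, KRT6B and KRT8 values are less certain than KRT15 values. The annotations of KRT8 and KRT18 overlap on opposite strands, and the library kit kept the strand, although the strand setting of the counting is not stated. Of the 10 genes, 2 (KRT5 and KRT8) had an entry in the RefSeq promoter table (GRCh38.p14), and the KRT8 entry is for a start upstream of the canonical transcript, so it does not describe the promoter of that transcript. The KRT5 entry was searched for fixed letters only, so variant forms of the TATA box or the AP-1 motif were not covered. This KRT5 entry held neither TATAAA (for the TATA box) nor TGANTCA (for AP-1) on either strand in the 250 bases before the listed start. These letters occur in 11.1% and 6.6% of the 27305 promoters of that table.

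Levels are given as scaled TPM, deposited TPM (transcript abundance corrected for gene length and library total) divided by one factor per library. Differences are given as log2 fold changes of scaled TPM + 1 with the standard error (SE), tested with limma over 15303 genes. Calls required more than a 2-fold difference together with an adjusted p (Benjamini-Hochberg) below 0.05, and "short of the fold threshold" marks a gene that met the condition on the adjusted p and not the one on the fold. The 2 libraries of a group were described as biological repeats. For the limma p-values, the spread of a gene between such repeats was pooled over all 6 groups, so it is not that of the 2 groups compared alone. All 10 keratins are accounted for: 9 passed the filter on low values and were tested, and KRT19 did not. In bulk RNA, fewer cells of a type and less RNA per cell cannot be told apart.

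RT libraries differed from untreated ones beyond the keratins. Mitochondrially encoded genes took 36.9% to 57.0% of TPM in RT libraries and 18.3% to 21.1% in untreated libraries, with the highest value in IL1RAP-KO RT replicate 2. Scaling factors were 0.744 to 1.099, the lowest also in that library. IL1RAP mRNA was at 3.05 and 5.80 scaled TPM in IL1RAP-KO RT against 8.33 and 8.79 in WT RT libraries, and at 4.39 and 4.95 in IL1RAP-KO against 17.96 and 20.7 in WT libraries. IL1R1 mRNA was at 8.34 and 7.38 in IL1R1-KO RT against 7.38 and 6.07 in WT RT libraries, and at 10.99 and 7.79 in IL1R1-KO against 10.6 and 9.44 in WT libraries, so it did not check that label. An edited gene can still be transcribed. By protein blots, the paper reported that its IL1R1 and IL1RAP KO cells resisted the degradation of IκBα, an NF-κB inhibitor, that interleukin-1 caused in wild-type cells. Because the mRNA levels did not check the label, the cells are called "labelled IL1R1-KO" here. The label epithelial cell was read beside listed basal and luminal genes, which were mixed. Of the basal list, TP63, ITGB4 and EGFR had lowest levels over the 12 libraries of 22.6, 154 and 67.6 scaled TPM. Those of CAV1, CDH3 and ACTA2 were 122, 111 and 27.9. The myoepithelial gene CNN1 was at 0 throughout, MYLK, NGFR and OXTR reached at most 2.37, 1.86 and 0.373, and TAGLN lay between 1.28 and 9.87. The luminal hormone receptor ESR1 stayed at 0.291 scaled TPM or below, and PGR was at 0 in 9 libraries, but other genes of the luminal list were present throughout, with lowest levels of 234 (AREG), 50.4 (MUC1), 40.3 (CD24) and 27.4 scaled TPM (EPCAM). ELF5, KIT and CLDN3 were each at 0 in 10 libraries. GATA3, CLDN4, FOXA1 and PRLR reached at most 15.7, 5.14, 3.64 and 1.48 scaled TPM.

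KRT5 was the most abundant of the 10 keratins in all 12 libraries, and its mRNA fell with RT in each genotype. It was at 1083 and 1305 scaled TPM in labelled IL1R1-KO RT against 2846 and 2384 in labelled IL1R1-KO libraries, at 1205 and 1051 in IL1RAP-KO RT against 2408 and 2353 in IL1RAP-KO libraries, and at 886 and 854 in WT RT against 2353 and 2281 in WT libraries. No RT library reached the lowest untreated one, and the WT RT pair was the lowest of the 6 pairs. The log2 fold change with RT was -1.13 in labelled IL1R1-KO, -1.08 in IL1RAP-KO and -1.41 in WT cells (SE 0.12 each; limma, adjusted p = 3.8e-05, 5.3e-05 and 1.4e-05). In both KO lines this lay close to the fold threshold. It was -0.99 without labelled IL1R1-KO RT replicate 1 and -0.99 without IL1RAP-KO RT replicate 2, and -0.66 and -0.68 with libraries scaled to nuclear protein-coding genes, where the median gene stood at 0.40 and 0.33.

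KRT14, a type I partner of KRT5, responded differently in KO and WT cells. It was at 64.1 and 81.7 scaled TPM in labelled IL1R1-KO RT against 43.1 and 56.7 in labelled IL1R1-KO libraries, at 52.9 and 57.8 in IL1RAP-KO RT against 63.5 and 59.2 in IL1RAP-KO libraries, and at 27.6 and 29.6 in WT RT against 82.0 and 83.3 in WT libraries. Only the WT RT pair lay below all other libraries, and the untreated WT pair lay above all of them. KRT14 thus fell with RT in WT cells (log2 fold change -1.501, SE 0.14; limma, adjusted p = 3.1e-05). In labelled IL1R1-KO cells its log2 fold change was 0.54 (adjusted p = 0.010, short of the fold threshold), and in IL1RAP-KO cells it was -0.15 (adjusted p = 0.42), or 0.25 with the nuclear protein-coding scaling, where the median gene stood at 0.33.

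KRT15, the other basal type I chain, was not called with RT in any genotype. It was at 842 and 983 scaled TPM in labelled IL1R1-KO RT against 621 and 754 in labelled IL1R1-KO libraries, at 1115 and 910 in IL1RAP-KO RT against 937 and 907 in IL1RAP-KO libraries, and at 703 and 680 in WT RT against 592 and 590 in WT libraries. The RT and untreated libraries did not overlap in labelled IL1R1-KO and WT cells and overlapped in IL1RAP-KO cells. Its log2 fold changes were 0.41 (limma, adjusted p = 0.019), 0.13 (0.41) and 0.23 (0.16) in labelled IL1R1-KO, IL1RAP-KO and WT cells, and with TPM as deposited those of IL1RAP-KO and WT were -0.23 and -0.04, where the median gene stood at -0.28 and -0.21. The ratio of KRT5 to KRT14 was 15.97 to 22.8 in KO RT and 28.9 to 32.1 in WT RT libraries, against 37.9 to 66.0 in untreated KO and 27.4 to 28.7 in untreated WT libraries.

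**Figure D1:**
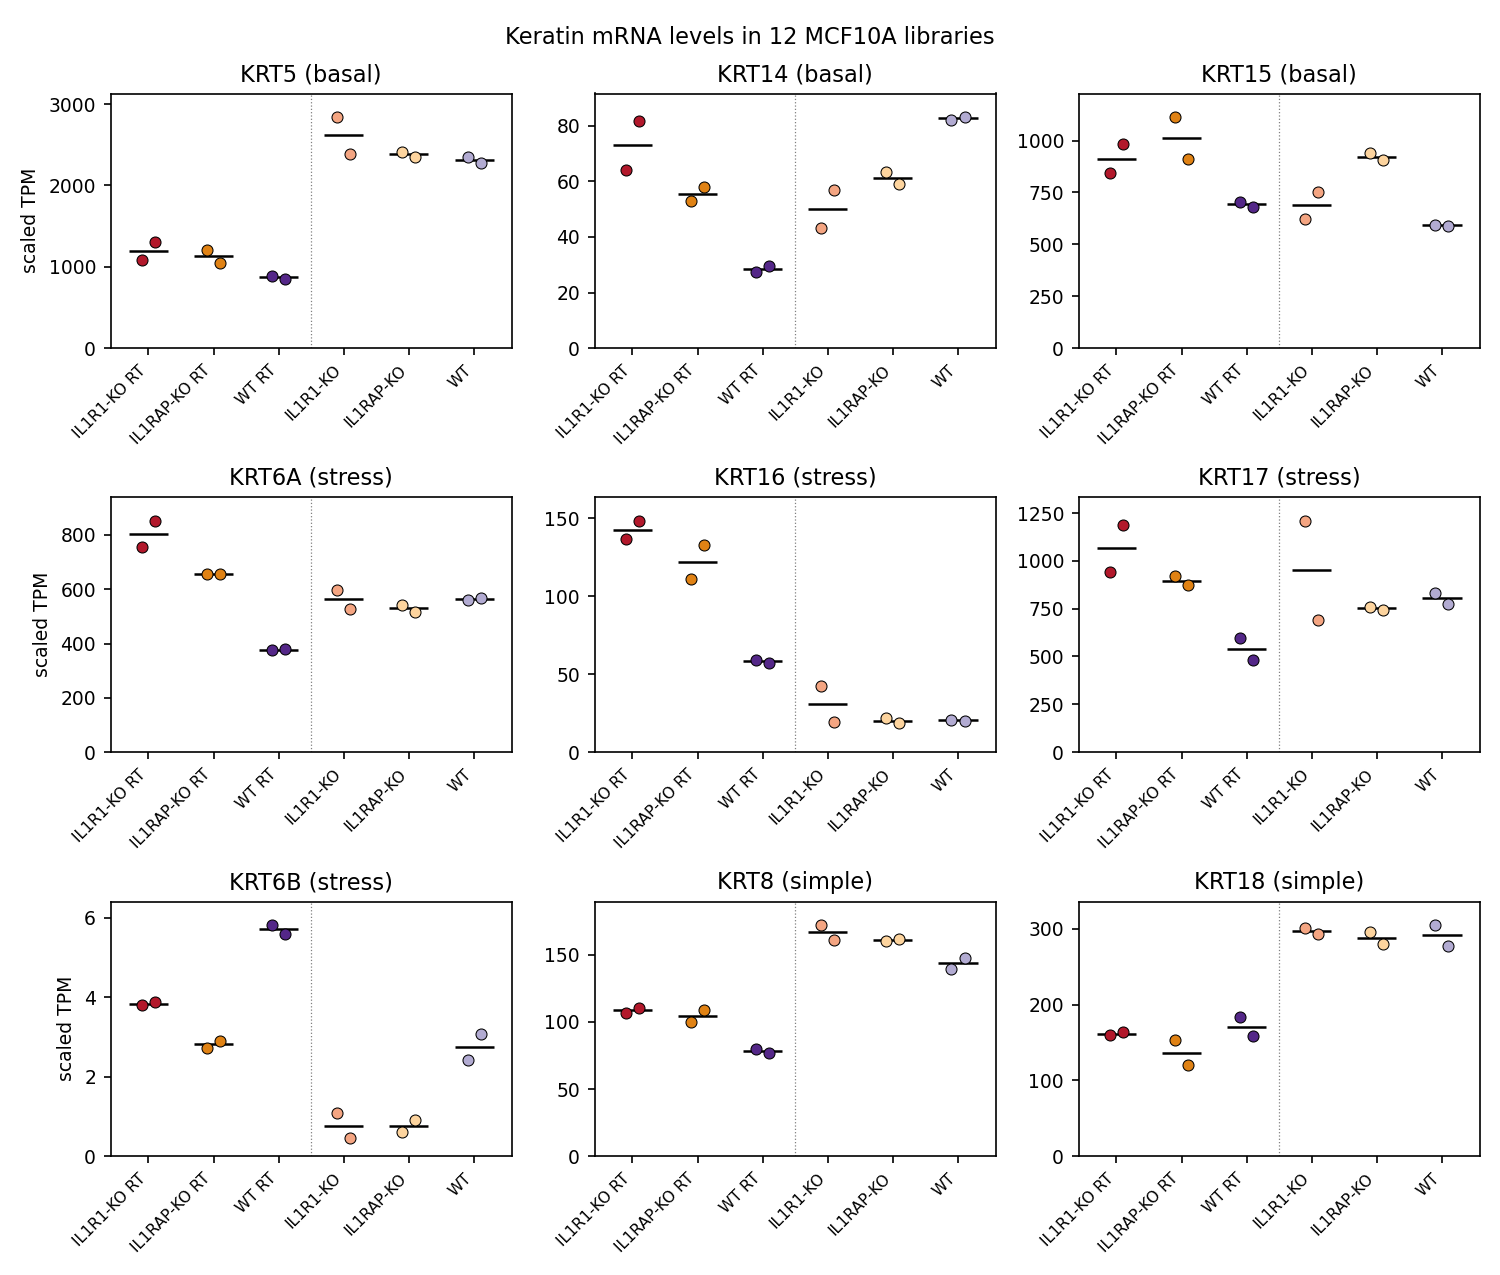
Levels of 9 keratins (vertical axes, scaled TPM from 0) in the 12 libraries, by group (horizontal axes, RT groups left of the dotted line and untreated groups right of it). Each point is a library and each line the mean of 2; the 6 KRT16 points of the RT groups, from 57.1 to 149, lie above the 6 untreated points, from 18.6 to 42.5, and the WT RT points of KRT14 and KRT6A are the lowest in their panels.

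The stress keratins did not move as a block. KRT16, a type I chain of wound-edge keratinocytes, rose with RT in each genotype. It was at 136 and 149 scaled TPM in labelled IL1R1-KO RT against 42.5 and 19.5 in labelled IL1R1-KO libraries, at 111 and 133 in IL1RAP-KO RT against 21.9 and 18.6 in IL1RAP-KO libraries, and at 59.4 and 57.1 in WT RT against 20.7 and 20.1 in WT libraries. Every RT library was above every untreated one, and within RT the WT pair was lowest. The log2 fold changes were 2.26, 2.53 and 1.47 in labelled IL1R1-KO, IL1RAP-KO and WT cells (SE 0.27 each; limma, adjusted p = 9.0e-05, 4.6e-05 and 0.0017). The 2 untreated labelled IL1R1-KO libraries lay apart, and the change in those cells was between 1.72 and 2.80 when single libraries were left out.

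KRT6B, a low-abundance type II stress keratin, was also higher after RT. It was at 3.81 and 3.87 scaled TPM in labelled IL1R1-KO RT against 1.08 and 0.456 in labelled IL1R1-KO libraries, at 2.72 and 2.90 in IL1RAP-KO RT against 0.597 and 0.902 in IL1RAP-KO libraries, and at 5.83 and 5.59 in WT RT against 2.43 and 3.07 in WT libraries. The 2 groups of each genotype did not overlap, and the WT pair was the highest both after RT and untreated. It rose in labelled IL1R1-KO (log2 fold change 1.48, SE 0.20; limma, adjusted p = 2.2e-04) and IL1RAP-KO cells (1.13, adjusted p = 0.0012), and in WT cells the change of 0.84 (adjusted p = 0.0072) was short of the fold threshold. In IL1RAP-KO cells it was 0.90 with TPM as deposited, and in WT cells 1.04, past the threshold, with a pseudocount of 0.1. KRT6A was 64.3 to 1158 times as abundant as KRT6B, and this ratio was 199 to 241 in KO RT and 64.3 to 68.1 in WT RT libraries against 555 to 1158 in untreated KO and 185 to 231 in untreated WT libraries. Of the 75-base windows of KRT6B, 17.5% occur in KRT6A, and whether KRT6A reads entered the KRT6B values was not tested.

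KRT6A itself moved in opposite directions in WT and KO cells, in each case by less than the fold threshold. It was at 757 and 853 scaled TPM in labelled IL1R1-KO RT against 597 and 528 in labelled IL1R1-KO libraries, at 656 and 657 in IL1RAP-KO RT against 544 and 517 in IL1RAP-KO libraries, and at 375 and 381 in WT RT against 561 and 569 in WT libraries. The RT libraries were the higher ones in both KO lines and the lower ones in WT, with no overlap. The log2 fold changes were 0.52, 0.31 and -0.58 (SE 0.083 each; limma, adjusted p = 6.8e-04, 0.012 and 4.2e-04), and with TPM as deposited that of IL1RAP-KO cells turned to -0.05, where the median gene was at -0.28.

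KRT17 was the most abundant type I stress keratin. It was at 944 and 1190 scaled TPM in labelled IL1R1-KO RT against 1210 and 690 in labelled IL1R1-KO libraries, at 921 and 873 in IL1RAP-KO RT against 761 and 744 in IL1RAP-KO libraries, and at 596 and 480 in WT RT against 834 and 775 in WT libraries. The labelled IL1R1-KO groups overlapped, and replicate 1 of the untreated group was the highest of all 12 libraries. No change with RT was called: the log2 fold changes were 0.21 (limma, adjusted p = 0.46), 0.25 (0.37) and -0.59 (0.056), and the first was -0.19 without labelled IL1R1-KO replicate 2 and the second -0.10 with TPM as deposited, where the median gene was at -0.28.

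The simple epithelial keratins KRT8 and KRT18 were both lower after RT. KRT8 was at 107 and 111 scaled TPM in labelled IL1R1-KO RT against 173 and 161 in labelled IL1R1-KO libraries, at 100.3 and 109 in IL1RAP-KO RT against 160.0 and 162 in IL1RAP-KO libraries, and at 80.0 and 76.7 in WT RT against 140 and 148 in WT libraries. All RT libraries lay below all untreated ones. The log2 fold changes of -0.61, -0.62 and -0.87 (SE 0.074 each; limma, adjusted p = 1.0e-04, 1.0e-04 and 1.7e-05) were short of the fold threshold, which the WT change passed with TPM as deposited (-1.13).

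KRT18, the type I partner of KRT8, was at 159 and 164 scaled TPM in labelled IL1R1-KO RT against 302 and 293 in labelled IL1R1-KO libraries, at 153 and 120 in IL1RAP-KO RT against 296 and 280 in IL1RAP-KO libraries, and at 183 and 158 in WT RT against 306 and 278 in WT libraries. Here too no RT library reached an untreated one. It fell in IL1RAP-KO cells (log2 fold change -1.09, SE 0.12; limma, adjusted p = 4.8e-05), and was short of the fold threshold in labelled IL1R1-KO (-0.87) and WT cells (-0.77). The IL1RAP-KO change was -0.92 without RT replicate 2 and -0.69 with the nuclear protein-coding scaling, and the WT change was -1.04 with TPM as deposited. KRT19, the smallest type I keratin, was at 0.170 scaled TPM or below in all but 3 libraries and at most 0.549, with 0 in all 4 IL1RAP-KO libraries, so levels of this gene could not be compared.

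Of the 9 keratins tested, RT raised 2 and lowered 1 in labelled IL1R1-KO cells, raised 2 and lowered 2 in IL1RAP-KO cells, and raised 1 and lowered 2 in WT cells. Over all genes tested, 16.3% were called in labelled IL1R1-KO cells (8.16% higher and 8.16% lower), 17.4% in IL1RAP-KO cells (8.21% and 9.18%) and 13.2% in WT cells (7.05% and 6.16%). The median log2 fold change of the 9 keratins was 0.41, 0.13 and -0.59, beside 0.01, 0.00 and 0.00 over all genes. By class, both tested simple keratins were lower at an adjusted p under 0.05 in all 3 genotypes, and of the 4 stress keratins 3 were higher in each KO line, while in WT cells 2 were higher and 1 was lower. At any fold, 48.2%, 50.1% and 43.4% of all genes had an adjusted p under 0.05 in labelled IL1R1-KO, IL1RAP-KO and WT cells.

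**Figure D2:**
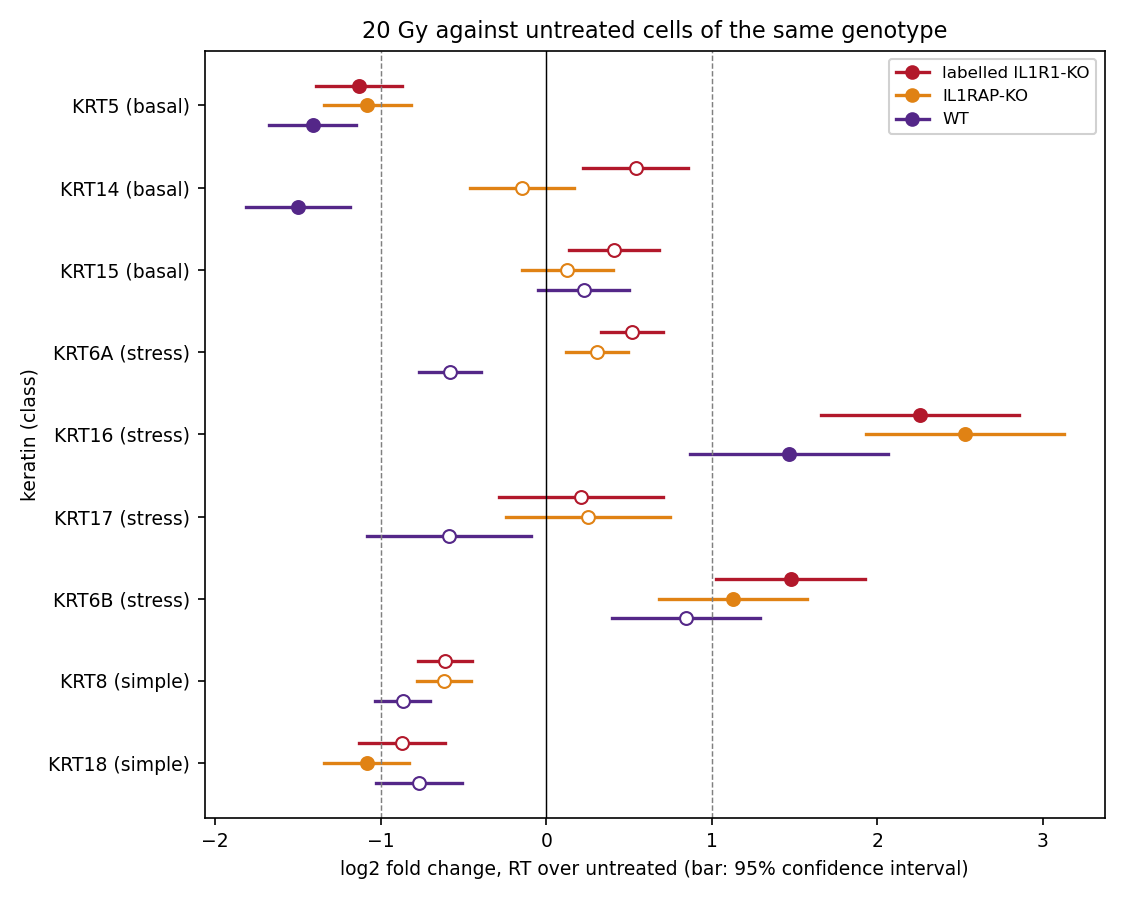
Log2 fold change of 9 keratins (rows) with RT over untreated cells of the same genotype (horizontal axis, log2 of scaled TPM + 1), with 95% confidence intervals as bars. Filled points were called, open points were not, and dashed lines mark the fold threshold. KRT5 and KRT16 are called in all 3 genotypes on opposite sides of 0, and KRT14 is called lower in WT cells (-1.501) and open at 0.54 in labelled IL1R1-KO and at -0.15 in IL1RAP-KO cells. With nuclear protein-coding scaling the last turns to 0.25, where the median gene stands at 0.33.

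Among untreated cells, no keratin was called between either KO line and WT (limma; 0 of 9 in each, where 0.137% of all genes were called for labelled IL1R1-KO and 0.0915% for IL1RAP-KO). At an unadjusted p under 0.05, for which no share over all genes is given here, 1 was higher and 2 were lower in each line. KRT14 was lower in both (log2 fold change -0.73 and -0.42, adjusted p = 0.17 and 1), as was KRT6B (-1.10 and -1.10, adjusted p = 0.12 and 0.15), and KRT15 was at 937 and 907 scaled TPM in IL1RAP-KO against 592 and 590 in WT libraries (0.64, adjusted p = 0.19). The KRT14 difference of labelled IL1R1-KO cells had an adjusted p between 0.030 and 0.83 when single libraries were left out. Without labelled IL1R1-KO replicate 2, KRT16, whose log2 fold change was 0.48 (adjusted p = 1) over all libraries, was called higher in that line than in WT (1.02, adjusted p = 0.015), and without replicate 1 it was at -0.06.

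After RT, several keratins were higher in KO cells than in WT cells. KRT14, KRT6A and KRT16 were called higher in labelled IL1R1-KO RT than in WT RT cells, 3 of 9, with 3.06% of all genes called in either direction and 1.18% called higher. KRT16 was called higher in IL1RAP-KO RT cells, 1 of 9, with 2.89% of all genes called and 0.823% called higher. Both comparisons share the same WT RT libraries. For KRT14, with the levels given above, the log2 fold change over WT RT was 1.31 in labelled IL1R1-KO RT (SE 0.14; limma, adjusted p = 4.1e-04) and 0.93 in IL1RAP-KO RT cells (adjusted p = 0.0040, short of the fold threshold). For KRT6A it was 1.09 (SE 0.083; adjusted p = 4.5e-05) and 0.80 (adjusted p = 4.2e-04, short of the fold threshold). The first KRT6A call was lost without labelled IL1R1-KO RT replicate 2, where the value of 0.996 was just short of the fold threshold.

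The KRT16 calls were sensitive to leaving out single libraries. The spread of KRT16 was pooled over all 6 groups and took in the untreated labelled IL1R1-KO pair, at 42.5 and 19.5 scaled TPM. The log2 fold change over WT RT was 1.27 in labelled IL1R1-KO RT (SE 0.27; limma, adjusted p = 0.014) and 1.05 in IL1RAP-KO RT cells (adjusted p = 0.031). With any of the 4 libraries removed, the first kept a value of 1.21 to 1.34 but had an adjusted p of 0.065 to 0.083. The second had an adjusted p of 0.11 to 0.15 in 3 of 4 such fits (without either WT RT library or without IL1RAP-KO RT replicate 2), 0.056 with TPM as deposited, 0.084 with no filter on low values and 0.093 when only the 4 libraries compared were fitted.

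No other member was called. KRT17 stood at 0.98 (adjusted p = 0.019, short of the fold threshold) and 0.74 (limma, adjusted p = 0.051) over WT RT, KRT5 at 0.45 (0.034) and 0.37 (0.061), KRT15 at 0.40 (0.066) and 0.54 (0.020), and KRT8 at 0.47 (0.0037) and 0.41 (0.0083), in labelled IL1R1-KO RT and IL1RAP-KO RT cells in that order. KRT6B went the other way, at -0.47 (0.17) and -0.82 (0.027, short of the fold threshold). KRT18 was at -0.07 (0.74) and -0.33 (0.083), the first of which was 0.19 with TPM as deposited and 0.28 with the nuclear protein-coding scaling. The median gene of that comparison stood at 0.23 and 0.31 with these scalings, above KRT18 in both. The median over the 9 keratins was 0.47 and 0.54, beside 0.00 over all genes in both comparisons. Between the 2 KO lines after RT, no keratin was called (0 of 9, beside 0.0719% of all genes). At an unadjusted p under 0.05, for which no share over all genes is given here, 2 were higher in labelled IL1R1-KO RT than in IL1RAP-KO RT cells. They were KRT14 (0.38, 95% confidence interval 0.07 to 0.70) and KRT6A (0.29, 0.10 to 0.48).

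**Figure D3:**
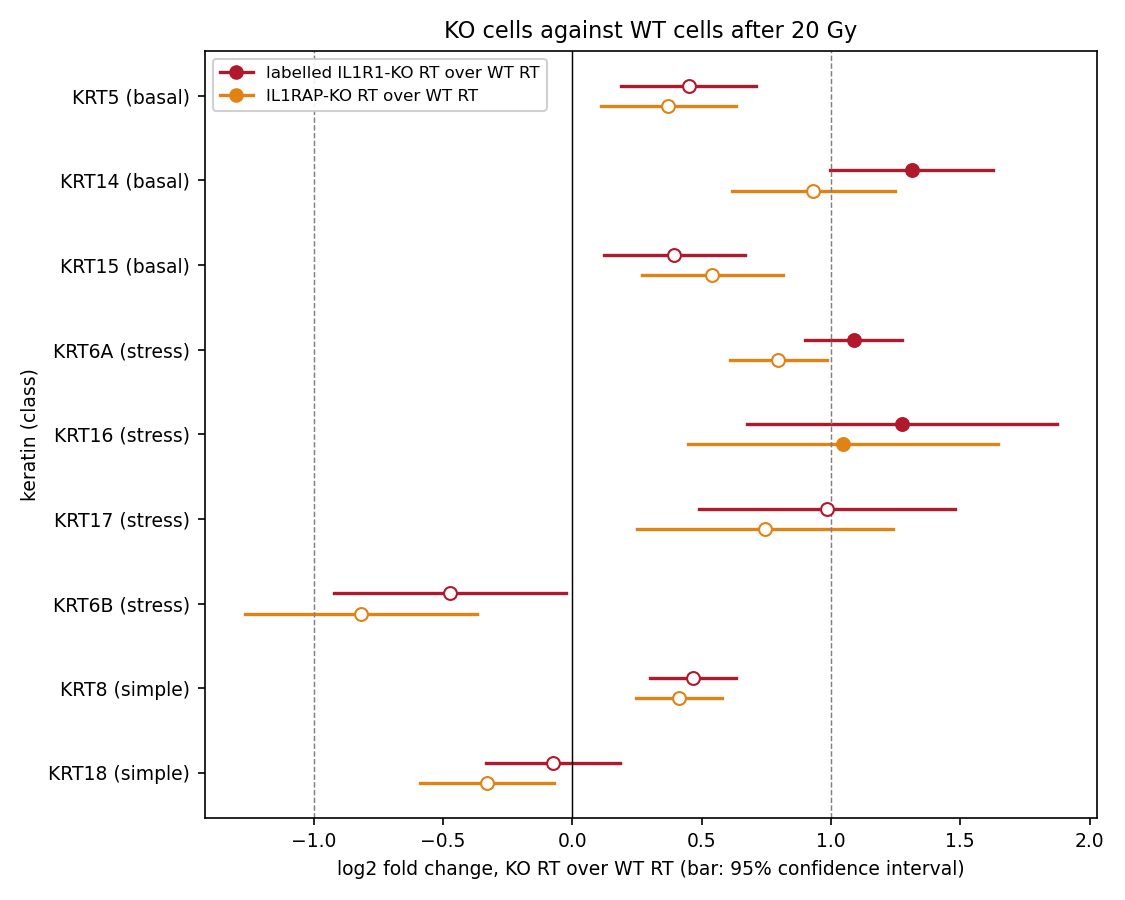
Log2 fold change of 9 keratins (rows) in KO RT over WT RT cells (horizontal axis, log2 of scaled TPM + 1), with 95% confidence intervals as bars, filled points for calls and dashed lines at the fold threshold. In both KO lines 7 keratins lie above 0 and KRT6B and KRT18 below it. With TPM as deposited, KRT18 of the labelled IL1R1-KO line turns to 0.19, where the median gene stands at 0.23. KRT14, KRT6A and KRT16 are called in labelled IL1R1-KO RT cells and KRT16 in IL1RAP-KO RT cells.

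The difference between genotypes in the response to RT was tested as an interaction. The response of KRT14 was 2.04 log2 units higher in labelled IL1R1-KO than in WT cells (SE 0.20; limma, adjusted p = 9.7e-04), and that of KRT6A 1.096 higher (SE 0.12, adjusted p = 0.0018), so 2 of 9 keratins were called where 1.44% of all genes were called and 0.516% called higher. In IL1RAP-KO cells the response of KRT14 was 1.36 higher (SE 0.20, adjusted p = 0.013), 1 of 9 where 0.817% of all genes were called and 0.157% called higher, and that of KRT6A was 0.89 higher (adjusted p = 0.0087, short of the fold threshold). The IL1RAP-KO interaction of KRT14 kept a value of 1.29 to 1.41 when single libraries were left out, but its adjusted p was 0.053 to 0.083 without either WT library, either IL1RAP-KO library or WT RT replicate 1. The KRT16 interaction was 0.79 (adjusted p = 0.33) in the labelled IL1R1-KO line and 1.06 (0.20) in the IL1RAP-KO line, and the first was 1.33 (0.0099) without labelled IL1R1-KO replicate 1. For KRT5 the interactions were 0.28 (0.44) and 0.33 (0.34), with 95% confidence intervals of -0.09 to 0.65 and -0.04 to 0.70.

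The makeup of the keratin pool was then examined within each library, where the factor between libraries plays no part. The 10 keratins together took 0.792% and 0.910% of the nuclear protein-coding TPM in labelled IL1R1-KO RT against 0.797% and 0.676% in labelled IL1R1-KO libraries, 0.779% and 0.715% in IL1RAP-KO RT against 0.714% and 0.694% in IL1RAP-KO libraries, and 0.421% and 0.418% in WT RT against 0.673% and 0.652% in WT libraries. The WT RT pair stood below all 10 other libraries. Over the 3 genotypes together, the keratin share differed by -0.03 percentage points between RT and untreated libraries (exact permutation test within genotype, two-sided, 216 arrangements, p = 0.611).

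Within that pool, RT libraries held a smaller share of basal and a larger share of stress keratins. A larger share need not mean a higher level. In WT cells KRT17 and KRT6A averaged 538 and 378 scaled TPM with RT against 805 and 565 untreated. The scarcer KRT16 and KRT6B averaged 58.3 and 5.71 against 20.4 and 2.75. KRT5 fell further there, with a log2 fold change of -1.41 beside -0.59 for KRT17 and -0.58 for KRT6A. The basal share was 48.6% to 57.4% in the 6 RT and 60.1% to 65.8% in the 6 untreated libraries, a difference of -10.7 points, and the stress share was 33.9% to 45.4% against 25.3% to 31.7%, a difference of 12.6 points (exact permutation, p = 0.00926 each, the smallest these arrangements allow, adjusted over 5 measures 0.0154). Neither share overlapped. The stress share averaged 45.1% ± 0.29 in labelled IL1R1-KO RT against 28.5% ± 4.52 in labelled IL1R1-KO, 40.9% ± 2.41 in IL1RAP-KO RT against 25.5% ± 0.12 in IL1RAP-KO, and 34.7% ± 1.148 in WT RT against 28.9% ± 0.13 in WT libraries (SD, n = 2 each). KRT5 alone made up 26.4% to 31.4% of the pool in RT and 46.4% to 48.8% in untreated libraries, and both differences lost their call without the leading member of each class: the basal share differed by 1.89 points (exact permutation, adjusted p = 0.481) and the stress share by 2.72 points (adjusted p = 0.405).

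The simple share was 5.68% to 9.03% in RT and 8.13% to 9.29% in untreated libraries, a difference of -1.91 points (exact permutation, p = 0.0185, adjusted 0.0231). RT libraries of the KO lines averaged 6.09% ± 0.59 (labelled IL1R1-KO) and 5.86% ± 0.01 (IL1RAP-KO) against 8.71% ± 0.82 and 8.78% ± 0.00 untreated, while WT RT libraries averaged 8.84% ± 0.27 against 9.03% ± 0.10 in WT libraries (SD, n = 2 each). Whether this share changed differently in the genotypes was not tested.

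The balance of type I and type II chains shifted as well. The log2 ratio of the summed type I over the summed type II keratins was 0.09 to 0.26 in RT and -0.78 to -0.58 in untreated libraries, a difference of 0.88 (exact permutation, p = 0.00926, adjusted 0.0154). Among the 10 keratins, type II mRNA exceeded type I mRNA in all 6 untreated libraries and was below it in all 6 RT libraries. Over all 54 keratin genes of the table, a sum chosen after seeing the data that adds the type II genes KRT7 and KRT81, type II mRNA was the larger in all 12 libraries: the log2 ratio was -0.56 to -0.11 in RT and -1.68 to -1.14 in untreated libraries, a difference of 1.18 (exact permutation, p = 0.00926, adjusted 0.0154). Without the leading member of each class the difference was 0.37 (adjusted p = 0.0926). For single pairs of partners, the ratio of KRT6A to KRT16 was 4.94 to 6.66 in RT and 14.04 to 28.3 in untreated libraries. The ratio of KRT18 to KRT8 was 1.095 to 1.52 in KO RT against 1.73 to 1.85 in untreated KO libraries. In WT cells it was 2.29 and 2.06 with RT against 2.19 and 1.88 untreated. Over the 12 libraries, which share the RT contrast and the scaling, log2 levels of KRT5 correlated with those of KRT8 at r = 0.97 and with those of its partner KRT14 at r = 0.50, and KRT8 correlated with KRT18 at r = 0.81.

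**Figure D4:**
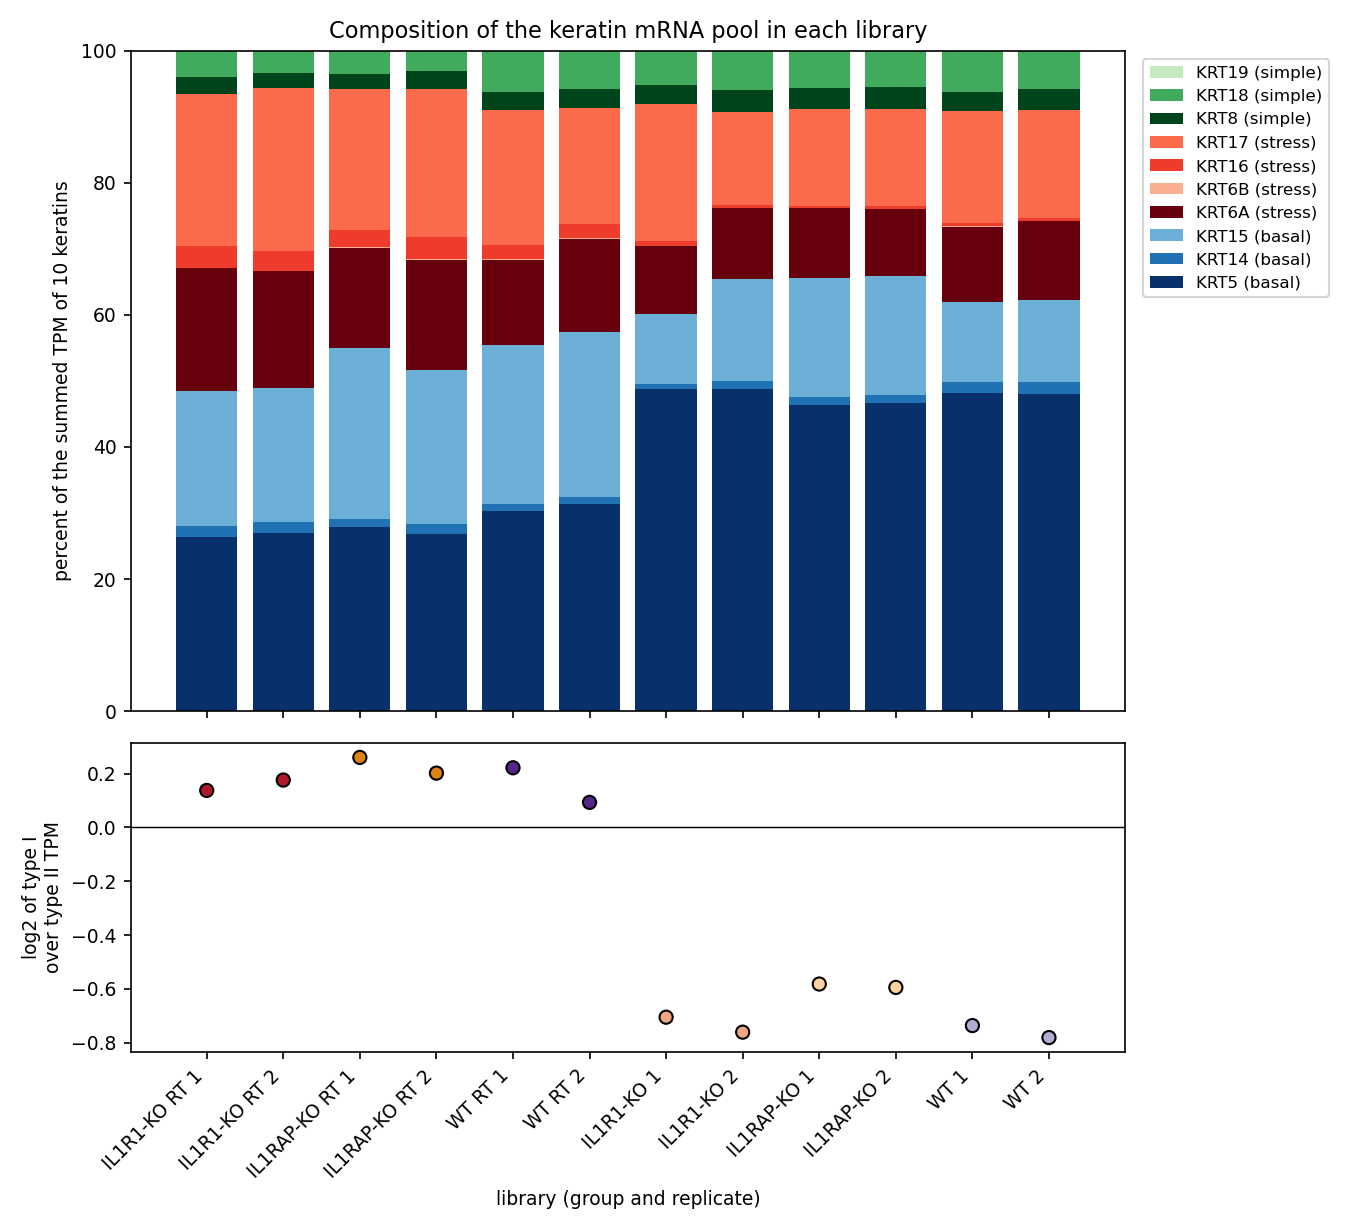
Upper panel, share of each keratin (colours) in the summed TPM of the 10 keratins (vertical axis, percent) in each library (horizontal axis); lower panel, log2 of summed type I over type II TPM of the 10 keratins in the same libraries. KRT5 (dark blue, lowest block) takes 26.4% to 31.4% in the 6 RT libraries on the left and 46.4% to 48.8% in the 6 untreated ones on the right, and the lower points lie above 0 in RT and below 0 in untreated libraries.

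Markers of other cell types were read beside these shares. The summed level of 8 fibroblast markers was 46.1 to 93.7 scaled TPM in RT and 24.3 to 32.8 in untreated libraries; 3 of the 8 were tested, COL1A2 was at 0 in all 12 libraries, PDGFRA in 8 and LUM in 6, and DCN, a secreted proteoglycan, made up most of the sum and was called higher with RT in all 3 genotypes, whereas FAP, a membrane protease, was called lower in IL1RAP-KO (log2 fold change -1.30; limma, adjusted p = 0.0104) and WT cells (-1.04, adjusted p = 0.033) and was at -0.93 (adjusted p = 0.0469, short of the fold threshold) in labelled IL1R1-KO cells. Of 6 endothelial markers 3 were tested, with sums of 7.499 to 10.99 in RT and 3.33 to 5.04 in untreated libraries and CLDN5 at 0 in 9 and CDH5 in 8 libraries. Of 8 leukocyte markers 2 were tested, with sums of 5.02 to 10.6 in RT and 4.39 to 6.38 in untreated libraries. Sums of basal markers without keratins were 591 to 788 and 721 to 832, and of luminal markers without keratins 490 to 726 and 611 to 726. In the luminal list EPCAM, an adhesion molecule, was called lower with RT in all 3 genotypes and MUC1, a mucin, higher in all 3. The part of these markers, and of the mitochondrial share, in the keratin differences was not tested.

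Most other keratin genes were too low to be tested. Of 44 other keratin genes 7 were tested, and with RT none was called in labelled IL1R1-KO cells, 2 were lower in IL1RAP-KO cells and 2 in WT cells. Over all genes, 16.3%, 17.4% and 13.2% were called in these cells in that order. KRT7, a type II chain of simple epithelia, averaged 358 scaled TPM in IL1RAP-KO RT against 1349 in IL1RAP-KO and 596 in WT RT against 1438 in WT cells (log2 fold change -1.92 and -1.28; limma, adjusted p = 2.7e-04 and 0.0038). KRT81, a type II hair keratin, averaged 250 in IL1RAP-KO RT against 1234 in IL1RAP-KO and 116 in WT RT against 1248 in WT cells (-2.30 and -3.43; adjusted p = 1.4e-04 and 1.7e-05). After RT it was the only one of the 7 called between KO and WT cells, at 549 in labelled IL1R1-KO RT cells and 250 in IL1RAP-KO RT cells against 116 in WT RT cells (2.25 and 1.12; adjusted p = 0.0013 and 0.033), and its response to RT was 2.66 higher in labelled IL1R1-KO than in WT cells (adjusted p = 0.011). Of all genes, 3.06% and 2.89% were called between these KO RT and WT RT cells. In labelled IL1R1-KO cells KRT7 averaged 525 with RT against 1052 untreated (-0.91, limma, adjusted p = 0.018, short of the fold threshold). KRT81 averaged 549 against 997 there (-0.76, adjusted p = 0.053). The 2 untreated libraries of these cells lay apart, at deposited TPM of 717 and 1526 for KRT7 and 670 and 1457 for KRT81. They also enter the KRT81 interaction.

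Of 19 genes that anchor keratin filaments in desmosomes and hemidesmosomes, 16 were tested, and with RT 2 were called higher in labelled IL1R1-KO, 1 higher and 1 lower in IL1RAP-KO, and 1 higher in WT cells, where 16.3%, 17.4% and 13.2% of all genes were called. At any fold, 9, 10 and 9 of the 16 had an adjusted p under 0.05 (6, 5 and 3 higher). COL17A1, the transmembrane collagen of hemidesmosomes, averaged 318 scaled TPM in labelled IL1R1-KO RT against 153 in labelled IL1R1-KO, 457 in IL1RAP-KO RT against 159 in IL1RAP-KO, and 381 in WT RT against 159 in WT cells (log2 fold change 1.04, 1.502 and 1.25; limma, adjusted p = 6.1e-05, 6.9e-06 and 2.9e-05). It moved against KRT5, which is anchored at the same junction. None of the 16 was called between KO and WT cells after RT, where 3.06% (labelled IL1R1-KO) and 2.89% (IL1RAP-KO) of all genes were called.

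Of 22 transcription factors listed for keratin genes and epithelial differentiation, 21 were tested, and 4, 1 and 3 were called higher with RT in labelled IL1R1-KO, IL1RAP-KO and WT cells. None was called lower. Over all genes, 8.16%, 8.21% and 7.05% were called higher in the same cells. KLF4, a factor of barrier formation in the epidermis, averaged 29.3 scaled TPM in labelled IL1R1-KO RT against 4.45 in labelled IL1R1-KO, 26.2 in IL1RAP-KO RT against 3.80 in IL1RAP-KO, and 15.97 in WT RT against 3.11 in WT cells (log2 fold change 2.49, 2.501 and 2.05; limma, adjusted p = 1.1e-06, 1.2e-06 and 4.5e-06). ELF3, an epithelial ETS factor, averaged 7.69 in labelled IL1R1-KO RT cells and 7.91 in IL1RAP-KO RT cells against 35.4 in WT RT cells (-2.07 and -2.04; adjusted p = 0.0086 and 0.011), and rose with RT in WT cells, where it was at 10.9 untreated (1.63, adjusted p = 0.0077). FOS, a subunit of AP-1, was also lower, at 16.1 and 15.3 against 39.0 in WT RT cells (-1.22 and -1.31, limma, adjusted p = 0.0034 and 0.0032). Other AP-1 subunits went both ways. In the same order JUN averaged 21.1 and 17.96 against 10.9, and JUND 47.7 and 29.5 against 28.2. JUNB averaged 26.9 and 19.3 against 34.3. No factor of the list was called higher in KO RT than in WT RT cells. EHF, another epithelial ETS factor, rose with RT in WT cells (108 in WT RT against 46.4 in WT; 1.199, adjusted p = 3.1e-04).

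Among 15 other intermediate filament genes 5 were tested, and VIM, LMNB1 and LMNB2 were called lower with RT in all 3 genotypes. Over all genes, 8.16%, 9.18% and 6.16% were called lower in labelled IL1R1-KO, IL1RAP-KO and WT cells. VIM, the mesenchymal filament vimentin, averaged 128 scaled TPM in labelled IL1R1-KO RT against 611 in labelled IL1R1-KO, 181 in IL1RAP-KO RT against 543 in IL1RAP-KO, and 205 in WT RT against 531 in WT cells. LMNB1, a lamin of the nuclear envelope, averaged 2.26 against 56.6, 3.19 against 53.6 and 4.55 against 54.8 in the same 3 pairs of groups (log2 fold change -4.15, -3.71 and -3.34; limma, adjusted p = 7.8e-08, 1.4e-07 and 2.5e-07).

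For one type II keratin of each class, the non-keratin genes with the most similar pattern were listed from 10963 genes, as Pearson's r of log2 levels over the 12 libraries, which share the RT contrast. KRT5 was most like IRX2 (r = 0.991), PHGDH, EMP2, PARPBP and EFEMP1 (0.986 to 0.989). KRT6A was most like CRACDL (0.939), DSC2 (0.934), a desmosomal cadherin, ZNF609, NPEPL1 and MAL2 (0.915 to 0.923). KRT8 was most like CEP20 (0.987), NET1, CBL, CDH2 and UGT8 (0.982 to 0.983).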

How the data were processed

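Sequencing was paired, with reads of 75 bases, on 12 stranded MCF10A libraries from which ribosomal RNA had been removed. Per the labels, the authors used cutadapt 1.15 for trimming and STAR 2.5.3a for alignment to GRCh38, and HTSeq and DESeq2 are named. The deposited values are TPM, computed by the authors; the gene lengths and the treatment of multiply aligned reads are not given in the sources used here. Read counts were not analysed here, and depth is unknown, so counting intervals are left out. Files of single libraries held the same values as the table of 60675 genes.

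The 15303 genes that reached 1 TPM in 2 or more libraries were tested. Libraries were scaled by unweighted trimmed means of M values (trimming 30% of M and 5% of A values per end). Log2 of scaled TPM + 1 was fitted with limma 3.58.1 in R 4.3.3, with 6 group means, a variance trend, and 6 residual and 3.73 prior degrees of freedom. P-values were adjusted over all genes tested. A call needed a fold change over 2 and an adjusted p below 0.05. The code was tested on simulated data. Shares and their exact permutation tests used pandas 2.3.3 and Python 3.11.15.

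Named were all 10 keratins, up to 4 called genes with the largest changes from each other list, and the 5 genes most like KRT5, KRT6A and KRT8 in pattern. Genes with a mean log2 level of at least 2 entered that search. The members and lists were chosen with earlier results of these data known. Alternatives were other scalings, a pseudocount of 0.1, no filter, fewer libraries in the fit, a replicate block, a fold of 1.5 and leaving out each library.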

Additional observations from a re-analysis of the deposited data

Results flagged for a closer look

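In 3 cases the response of a keratin to RT differed between genotypes by the test of the difference itself. The log2 response of KRT14 was 2.04 higher in labelled IL1R1-KO and 1.36 higher in IL1RAP-KO than in WT cells, and that of KRT6A was 1.096 higher in labelled IL1R1-KO than in WT cells (limma, adjusted p = 9.7e-04, 0.013 and 0.0018). All 3 use the same WT libraries. When single libraries were left out, the KRT14 difference of labelled IL1R1-KO cells stayed between 1.85 and 2.24 with an adjusted p of 6.8e-04 to 0.0090, whereas the KRT14 difference of IL1RAP-KO cells lost its call without WT replicate 1, WT replicate 2, IL1RAP-KO replicate 1, IL1RAP-KO replicate 2 or WT RT replicate 1 (adjusted p = 0.053 to 0.083).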

How the results depend on the processing

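With 2 libraries in a group, unknown depth and a mitochondrial share that moved with RT, directions of small changes depended on the scaling. Against the main scaling, the median gene stood at -0.21, 0.03 and -0.28 with TPM as deposited for RT in WT, labelled IL1R1-KO and IL1RAP-KO cells, and at 0.10, 0.40 and 0.33 with nuclear protein-coding scaling. Called keratins with RT in WT cells numbered 5 with TPM as deposited and 6 at a fold of 1.5, against 3. In labelled IL1R1-KO cells they numbered 5 at a fold of 1.5, against 3, and in IL1RAP-KO cells 2 with nuclear protein-coding scaling, against 4. For IL1RAP-KO RT against WT RT the count of 1 became 0 with TPM as deposited, no filter or only the libraries compared, and 4 with nuclear protein-coding scaling or at a fold of 1.5. The IL1RAP-KO interaction gave 2 instead of 1 with nuclear protein-coding scaling or at a fold of 1.5. For IL1RAP-KO RT against WT RT the median gene stood at -0.07 with TPM as deposited and at 0.24 with nuclear protein-coding scaling. The share of all genes called under each setting is not given here. The counts therefore describe the stability of the keratin calls alone. The causes of these shifts were not tested. Leaving out single libraries gave 3 to 3, 2 to 3 and 2 to 4 calls with RT in WT, labelled IL1R1-KO and IL1RAP-KO cells, 0 to 1 for untreated labelled IL1R1-KO against WT, 1 to 2 and 0 to 1 for labelled IL1R1-KO RT and IL1RAP-KO RT against WT RT, and 2 to 4 and 0 to 1 for their interactions. Without the leading member of each class the keratin share differed by 0.10 points, the basal share by 1.89 and the stress share by 2.72, and the log2 ratio of type I to type II by 0.37. Signs turned in small changes. With TPM as deposited, RT gave -0.041 for KRT15 in WT and -0.23, -0.10 and -0.046 for KRT15, KRT17 and KRT6A in IL1RAP-KO cells, and KRT18 of labelled IL1R1-KO RT over WT RT was 0.19, its interaction 0.19. With nuclear protein-coding scaling these last were 0.28 and 0.25, KRT14 with RT in IL1RAP-KO cells was 0.25 and the KRT15 interaction of IL1RAP-KO cells 0.19. The median gene moved too. For labelled IL1R1-KO RT over WT RT it stood at 0.23 with TPM as deposited and 0.31 with nuclear protein-coding scaling. For the labelled IL1R1-KO interaction it stood at 0.23 and 0.30. For the IL1RAP-KO interaction it stood at 0.23 with nuclear protein-coding scaling. Leaving out single libraries, KRT16 of untreated labelled IL1R1-KO over WT was -0.059 (without labelled IL1R1-KO replicate 1) to 1.02, KRT17 with RT in labelled IL1R1-KO cells was -0.19 (without replicate 2) to 0.62, KRT15 with RT in IL1RAP-KO cells -0.025 (without RT replicate 1) to 0.27 and its interaction -0.25 to 0.042 (without RT replicate 2), and KRT18 of labelled IL1R1-KO RT over WT RT -0.18 to 0.017 (without WT RT replicate 1).

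Replicate numbers did not pair the libraries: deviations of same-numbered libraries correlated at -0.06 to 0.10 over 15 pairs of groups (median 0.01, 0 over the limit of 0.1). With the replicate block, 3, 3 and 4 keratins were called with RT in WT, labelled IL1R1-KO and IL1RAP-KO cells, as without it.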
